A study of Mus musculus with 12 samples.

Results

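The clustered replication and linker histone genes comprised every gene of the deposited tables with a symbol of the form H1f, H2ac, H2bc, H3c or H4c followed by a number. The rule used names only and found 73 of 78298 genes, of which 11 encoded linker histone H1, 18 H2A, 19 H2B, 12 H3 and 13 H4. On GRCm38, 54 of them lie on chromosome 13, 10 on chromosome 3, 4 on chromosome 11, 3 on chromosome 6 and 2 on chromosome 15.

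Poly(A)-selected RNA was sequenced from C2C12, a mouse myoblast cell line whose cells fuse into myotubes when serum is changed. The RGECO line carried a genetically encoded calcium indicator (6 libraries, of which 5 were used), and its parent was wild-type C2C12 (WT, 6 libraries). Both lines were kept on a methacrylated gelatin hydrogel in the same differentiation medium, with 10% horse serum, 50 ng per ml of IGF-1 and 1 mg per ml of aminocaproic acid, and RNA was taken on day 14. The labels give neither the promoter of the indicator nor whether RGECO is 1 clone, and they do not say that replicates were separate cultures, so every p-value below measures the spread between these libraries, which may be technical. The study belongs to work on engineered neuromuscular tissue, and the comparison asks how the indicator line differs from its parent.

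The 5 RGECO libraries held 5881622 to 11926220 estimated counts and the 6 WT libraries 9370322 to 11744314. RGECO 4 held 825 counts and none in any histone gene, which allows a share of up to 0.364%, and it was left out for its low total. Fits with all 12 libraries add back only RGECO 4, so they are not an independent check of the histone results. WT 2 stood apart within its line, with the highest summed histone level and the lowest shares of mitochondrially encoded and Malat1 counts (0.204% and 0.156%). The 10 myotube markers summed to 25000 to 31900 counts per 1000000 (CPM) in RGECO and 20200 to 28200 CPM in WT. Myoblast and reserve cell markers summed to 1750 to 2370 CPM in RGECO and 1390 to 1970 CPM in WT, neuron markers to 45.6 to 63.2 CPM and 21.1 to 48.4 CPM, and macrophage markers to 15.1 to 33.8 CPM and 13.8 to 29.8 CPM. Endothelial, Schwann cell and adipocyte marker sums stayed at or below 3.76 CPM, and Rbfox3, Snap25, Adgre1 and Plin1 had no count. The 6 fibroblast markers summed to 793 to 1140 CPM in RGECO and 1880 to 3080 CPM in WT, and their part in the results below was not tested. They did not all go one way: of 5 tested, 2 were lower and 1 was higher in RGECO at adjusted p 0.05 (4.93% and 3.42% of all genes).

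Replication-dependent histone genes supply the core histones H2A, H2B, H3 and H4 and most linker H1 proteins while DNA is copied in S phase. Their mRNAs are unusual in that they normally end in a conserved stem-loop bound by the stem-loop binding protein and carry no poly(A) tail, although polyadenylated forms are known in differentiating cells. Replacement histones such as H1f0 and the H3.3 genes are transcribed outside S phase and give ordinary polyadenylated mRNAs.

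The stem-loop is shown because it is the sequence that sets this family apart in a poly(A)-selected library. A match to its 16-base consensus was present in a GENCODE M21 transcript of 46 members and absent from those of 27. Capitals mark the stem-loop, coordinates are on GRCm38, and up to 5 flanking bases are given on each side.
H1f2, chr13:23739507-23739532, plus strand: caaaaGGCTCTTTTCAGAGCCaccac
H1f4, chr13:23621777-23621802, minus strand: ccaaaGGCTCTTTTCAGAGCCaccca
H3c2, chr13:23752815-23752840, plus strand: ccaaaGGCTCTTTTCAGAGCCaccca
H3c6, chr13:23561898-23561923, minus strand: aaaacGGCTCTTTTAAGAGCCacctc
H3c8, chr13:23535884-23535909, plus strand: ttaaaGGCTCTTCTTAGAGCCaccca
H4c8, chr13:23531453-23531478, plus strand: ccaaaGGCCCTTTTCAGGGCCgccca
H4c9, chr13:22040961-22040986, minus strand: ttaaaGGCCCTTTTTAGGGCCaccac
The form seen in H1f2, H1f4 and H3c2 was the most frequent, with 26 members (3 H1, 10 H2A, 8 H2B, 5 H3 and none of H4). The form seen in H4c8 was present in 7 members, all of them H4. The H3c6 form was shared by 6 members, the H4c9 form by 2, and the H3c8 form was its only example. H1f0 had no match and had a poly(A) signal in the last 50 bases of its transcript. Among the members that differed between the lines below, H3c2 had a match, while the annotated transcripts of H1f5, H3c13 and H2bc13 had none. The annotated transcript of H2bc13 is 381 bases long, and a stem-loop past the end of an annotated transcript would not be found. Absence of a match is therefore a statement about the annotation, not about the gene.

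Promoters of H1f5 and H1f4 are printed because these linker genes had the largest fold changes of their class in opposite directions. Each window runs from 250 bases before to 50 after the start (RefSeq, GRCm38.p6), both are on the minus strand, and capitals mark the motifs CCAAT (on either strand), TATAAA and, for the H1 box, AAACACA.
H1f5, chr13:21780576-21780875: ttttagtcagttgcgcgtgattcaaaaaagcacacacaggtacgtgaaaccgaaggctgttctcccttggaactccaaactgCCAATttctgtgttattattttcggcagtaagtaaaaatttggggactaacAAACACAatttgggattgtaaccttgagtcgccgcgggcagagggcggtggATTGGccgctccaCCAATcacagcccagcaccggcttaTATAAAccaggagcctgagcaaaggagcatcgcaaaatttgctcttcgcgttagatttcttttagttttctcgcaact
H1f4, chr13:23622509-23622808: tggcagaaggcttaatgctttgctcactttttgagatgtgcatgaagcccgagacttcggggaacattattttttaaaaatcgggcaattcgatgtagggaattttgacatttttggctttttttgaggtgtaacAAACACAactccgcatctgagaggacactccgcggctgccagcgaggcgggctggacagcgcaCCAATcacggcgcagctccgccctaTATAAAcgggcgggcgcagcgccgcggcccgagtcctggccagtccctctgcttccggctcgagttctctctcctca
Both windows held all 3 motifs, so their presence did not tell the pair apart, although H1f5 had more marked CCAAT matches than H1f4. Windows were found for 62 members. On either strand, CCAAT occurred in 82.5% of the members' windows and in 37.4% of all windows of this length, and TATAAA in 54.0% and 13.6%. The octamer ATTTGCAT occurred in 35.3% of H2A and 46.7% of H2B windows against 1.74% of all. AAACACA occurred in 50.0% of H1 windows against 7.18% of all. Each motif was searched on its own, so matches of different motifs may overlap, and a match is a description of letters only.

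Levels per length (TPM, transcripts per 1000000) differed by class. Summed H3 TPM was 227, 245, 318, 148 and 192 in RGECO 1, 2, 3, 5 and 6, against 328, 563, 409, 311, 320 and 363 in WT 1 to 6. RGECO 3 alone overlapped the WT range, by its lowest library, WT 4. The mean was 226 ± 63.2 TPM in RGECO and 382 ± 95.5 TPM in WT (SD, n = 5 and 6), a ratio of 0.591, and the ratio stayed between 0.531 and 0.653 when any 1 library was left out. H3 made up 10.0% to 15.6% of all histone TPM in RGECO and 17.8% to 21.7% in WT, so these shares did not overlap. Other core classes differed less. H2A summed to 212 ± 49.2 TPM in RGECO and 290.5 ± 65.2 TPM in WT (ratio 0.729), H2B to 429 ± 81.3 TPM and 470 ± 72.1 TPM (0.913), and H4 to 382 ± 67.9 TPM and 444 ± 99.7 TPM (0.86). H1 went the other way, with 430 ± 61.7 TPM in RGECO and 378 ± 31.5 TPM in WT (1.14). In bulk RNA, fewer cells that express a gene and less of its RNA per cell cannot be told apart. The ranges of all classes overlapped between the lines, and the sum over all 73 genes was 1678 ± 250 TPM in RGECO and 1965 ± 340 TPM in WT (0.854). On summed CPM the 5 ratios had the same direction, at 1.08 for H1, 0.795 for H2A, 0.816 for H2B, 0.552 for H3 and 0.765 for H4. TPM are shares of a fixed total, of which the 7SK RNA Rn7sk took 31610 ± 9668 TPM in RGECO and 56660 ± 10370 TPM in WT. Of the signal recognition particle RNAs, Rn7s1 took 75790 ± 19000 TPM in RGECO and 93140 ± 16400 TPM in WT. Rn7s2 took 111400 ± 37990 TPM and 121400 ± 34050 TPM in the same order. These RNAs carry no poly(A) tail but were counted, so histone counts need not come from polyadenylated transcripts alone. The part of such RNAs in the TPM ratios was not tested.

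**Figure D1:**
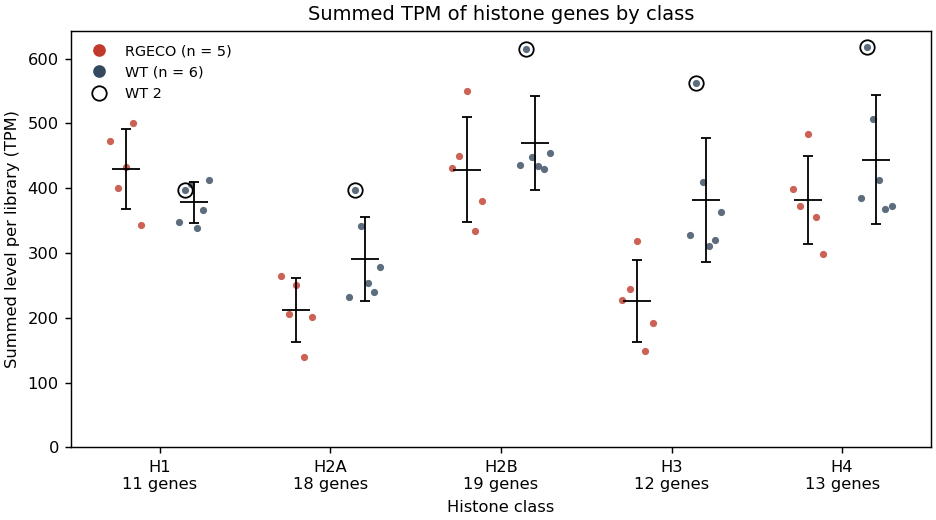
Summed TPM of the histone genes of each class, 1 point per library, RGECO to the left of WT, with the mean and SD as a bar and WT 2 ringed. H3 lies between 148 and 318 TPM in RGECO and between 311 and 563 TPM in WT, and WT 2 is the highest library of H2A, H2B, H3 and H4.

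Of the 73 genes, 44 had a count in all 11 libraries, and 57 passed the filter on low counts. H1f7, H1f8, H1f9 and H2ac1 had no count, and 12 more were measured but too low to test (H1f6, H2ac7, H2ac8, H2ac21, H2ac22, H2ac23, H2bc1, H2bc24, H2bc26, H2bc27, H3c14 and H4c17). With edgeR's quasi-likelihood test and Benjamini-Hochberg adjustment over 13318 genes, 4 of the 57 were lower in RGECO at adjusted p 0.05 (7.02%), against a background of 4.93% of all genes. None was higher, against 3.42% of all genes, and 1 was higher at an unadjusted p under 0.05 (1.75% against 9.7%). In either direction 8.35% of all genes were called. The share of calls was thus near the background, and 3 of the 57 had CPM ranges that did not overlap (5.26% against 7.97%). Of the 57, 45 had a log2 fold change below 0 (78.9% against 51.5% of all genes), with a median log2 fold change of -0.43 against -0.01 for all genes. An unadjusted p under 0.05 toward lower RGECO levels was found for 13 (22.8% against 12.4%). Many members share reads, so these counts do not come from independent genes. Precision was low, since the 95% interval lay inside a 2-fold change for 16 members (28.1%), against 74.0% of all genes.

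The count of calls changed with the settings. With each library's Malat1 share as a covariate, 21 members were lower (36.8% against 10.3% of all genes) and H1f4 was higher (10.5% of all genes were). With the mitochondrial share as a covariate, 13 were lower (22.8% against 11.4%) and H1f4 was higher (12.1% of all genes were). DESeq2 called 7 lower against 6.92% of all genes, and H1f4 higher against 5.65%. Without WT 2, 3 were lower (5.01% of all genes) and H1f4 was higher (3.62%). Leaving out RGECO 1 left 2 lower (4.32% of all genes), and so did leaving out WT 3 (3.9%). Leaving out RGECO 6 left 2 lower (3.98%) and H1f4 higher (2.87%).

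**Figure D2:**
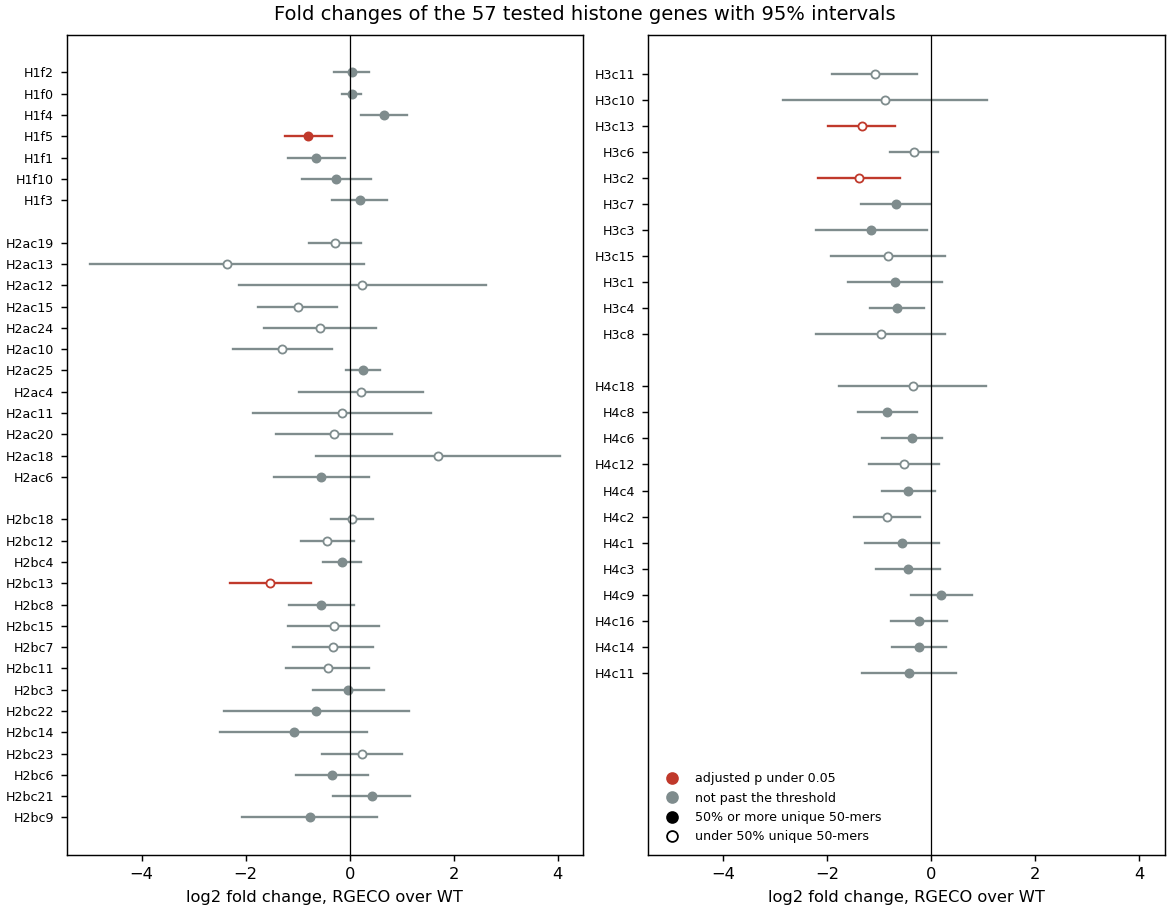
Log2 fold change of RGECO over WT with its 95% interval for the 57 tested histone genes, by class and in order of mean TPM within a class. Red marks the 4 genes past adjusted p 0.05, and open circles mark genes with under 50% unique 50-base words. All 11 tested H3 genes lie below 0, against 51.5% of all genes, but they share reads and are not separate results.

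H1f5 (ENSMUSG00000058773, chr13:21779883-21780625, minus strand), a replication-dependent linker histone, was the called gene with no near-identical copy. All of its 50-base words (100%) are unique among annotated transcripts, and its counts were whole in every library. H1f5 had 5.77, 4.42, 6.15, 7.70 and 3.85 CPM in RGECO 1, 2, 3, 5 and 6, against 7.98, 12.3, 9.76, 8.46, 8.53 and 10.49 CPM in WT 1 to 6. Every RGECO library lay under every WT library, the nearest being RGECO 5 and WT 1. H1f5 averaged 5.58 ± 1.52 CPM in RGECO and 9.58 ± 1.61 CPM in WT (SD, n = 5 and 6), a log2 fold change of -0.79 (SE 0.21, edgeR adjusted p = 0.0305). The H1f5 call was lost, at adjusted p of 0.0509 to 0.10, when any 1 of RGECO 1, 2, 3 or 6 or WT 2, 3, 5 or 6 was left out, the log2 fold change then lying between -0.84 and -0.66. The call was also lost with no filter on low counts (-0.80, edgeR adjusted p = 0.0613), in log2(TPM + 1) (-0.64, limma adjusted p = 0.0749) and in log2(TPM + 0.1) (-0.67, limma adjusted p = 0.0745).

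The most abundant linker genes did not pass the test. H1f2 was the highest of all 73 genes per length, at 212 ± 35.2 TPM in RGECO and 188 ± 20.4 TPM in WT. H1f0, the replacement linker histone of differentiated cells, was the third at 120 ± 9.54 TPM in RGECO and 109 ± 13.9 TPM in WT. The log2 fold change was 0.04 for both in the count test, with 95% intervals of -0.14 to 0.21 for H1f0 and -0.30 to 0.38 for H1f2. Both intervals lie inside a 2-fold change, and the sign of a value this small turned under other settings.

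H1f4 was the one linker gene with a larger positive fold change. It had 89.7, 80.1, 93.2, 138 and 62.4 CPM in RGECO 1, 2, 3, 5 and 6, against 57.2, 86.1, 71.0, 46.4, 45.6 and 45.01 CPM in WT 1 to 6. RGECO 2 and 6 lay within the WT range, and WT 2 and 3 within the RGECO range. The log2 fold change was 0.66 (SE 0.21), and it missed the threshold (edgeR adjusted p = 0.0637, with 0.00432 to 0.17 over the alternatives). Without WT 2 it was 0.81 (adjusted p = 0.0149) and without RGECO 6 it was 0.79 (adjusted p = 0.0317). In M21 the gene H2bc6 overlaps H1f4 on the same strand, and 68.0% of the 50-base words of H1f4 are unique. Of the summed H1 TPM, H1f4 took 15.3%, 14.4%, 15.3% and 18.4% in RGECO 1, 2, 3 and 5 and 8.53% to 12.3% in WT, with RGECO 6 also above the WT range, while H1f5 took 2.49% to 3.18% in RGECO and 4.11% to 6.26% in WT. H1f2 stayed near the same share, at 49.2% ± 1.45 in RGECO and 49.8% ± 3.37 in WT. Of the remaining H1 genes, H1f1 had a log2 fold change of -0.64 (adjusted p = 0.15), H1f10 of -0.25 and H1f3 of 0.20.

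**Figure D3:**
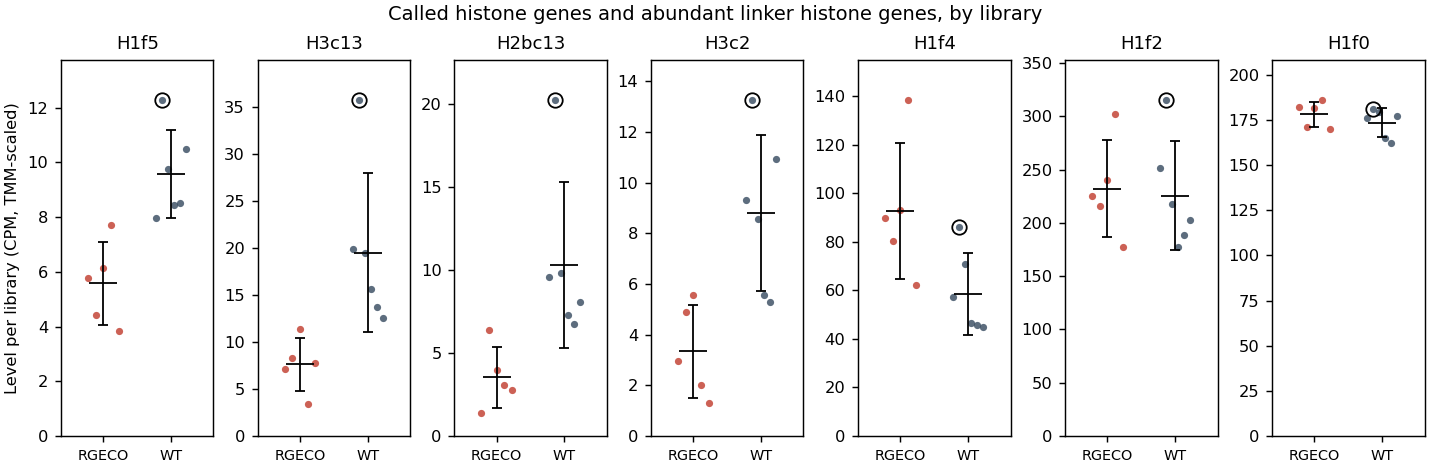
CPM by library for the 4 called genes (H1f5, H3c13, H2bc13, H3c2) and for H1f4, H1f2 and H1f0, with RGECO left of WT, mean and SD as a bar and WT 2 ringed. RGECO and WT points separate in H1f5, H3c13 and H2bc13, and H1f0 lies between 162 and 186 CPM in all 11 libraries.

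H3 genes encode the core histone that carries most of the studied tail modifications. All 11 tested H3 genes had a fold change below 0, against 51.5% of all genes, with a median log2 fold change of -0.89. Of these, 2 passed the test, where 4.93% of all genes were lower. By shared 50-base words the H3 genes fall into a group of 9 and the H3c13 group, both summed below, so they are not 11 separate results. H3c13 (ENSMUSG00000074403, chr3:96268654-96269141, plus strand) had 7.14, 8.23, 11.4, 3.42 and 7.80 CPM in RGECO 1, 2, 3, 5 and 6, against 19.9, 35.7, 19.5, 15.6, 13.7 and 12.6 CPM in WT 1 to 6. The groups did not overlap, and WT 2 was far above the other WT libraries. H3c13 averaged 7.60 ± 2.85 CPM in RGECO and 19.5 ± 8.47 CPM in WT, a log2 fold change of -1.33 (SE 0.30, edgeR adjusted p = 0.0112), and stayed past the threshold without any 1 library (-1.07 without WT 2, adjusted p = 0.0138), but not in log2(TPM + 1) with no filter on low values (limma adjusted p = 0.0727). None of its 50-base words is unique (0%): it shares them with H3c14, H3c15 and the annotated genes Gm20628 and Gm20634, so its count cannot be told from theirs.

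H3c2 (ENSMUSG00000069267, chr13:23752267-23752886, plus strand) had 2.94, 4.90, 5.55, 2.00 and 1.28 CPM in RGECO 1, 2, 3, 5 and 6, against 9.30, 13.2, 8.57, 5.57, 5.28 and 10.9 CPM in WT 1 to 6. RGECO 3 lay just above WT 5 and just under WT 4, so the ranges met. Its log2 fold change was -1.39 (SE 0.37, edgeR adjusted p = 0.0281). Without RGECO 1, 5 or 6 or WT 1, 3 or 6 the adjusted p was 0.0529 to 0.0682 and the log2 fold change -1.38 to -1.15. In log2(TPM + 1) with no filter on low values H3c2 also missed the threshold (limma adjusted p = 0.121). The H3 genes with the highest counts were H3c6 with a log2 fold change of -0.32 (adjusted p = 0.424) and H3c11 with -1.08 (adjusted p = 0.103). H3c11 was called lower by DESeq2 and with the mitochondrial or Malat1 share in the fit, and H3c6 with the Malat1 share. H3c10 had -0.89 with an SE of 0.88.

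H2B genes gave 1 call. H2bc13 (ENSMUSG00000094338, chr13:21715763-21716143, minus strand) had 1.36, 6.40, 3.97, 3.07 and 2.79 CPM in RGECO 1, 2, 3, 5 and 6, against 9.54, 20.2, 9.83, 7.30, 6.73 and 8.05 CPM in WT 1 to 6. The ranges did not overlap, with RGECO 2 just under WT 5, and WT 2 again stood above its line. The log2 fold change was -1.52 (SE 0.37, edgeR adjusted p = 0.0163), with -1.21 without WT 2 (adjusted p = 0.0255) and calls kept without any other 1 library. In log2(TPM + 1) with no filter on low values it missed the threshold (limma adjusted p = 0.0505). Of its 50-base words 17.2% are unique. The promoter windows of H2bc13 and H2ac13 share 272 bases on opposite strands. H2ac13 had a log2 fold change of -2.36, but with an SE of 1.18 and no counts in 3 libraries it was not past the threshold (adjusted p = 0.283).

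The abundant H2B genes did not pass the test. H2bc18, the second gene per length, had 153 ± 31.5 TPM in RGECO and 129 ± 11.6 TPM in WT, and its log2 fold change in the count test was 0.05 (adjusted p = 0.924). None of its 50-base words is unique (0%), as all are shared with Gm20628 and Gm42743, so its level and rank cannot be told from theirs. H2bc4 had -0.15 (adjusted p = 0.689) and H2bc12 -0.43 (95% interval -0.94 to 0.08, adjusted p = 0.324). H2bc12 was lower once Malat1 share entered the fit (-0.61, adjusted p = 0.0175). Among H2A genes, which gave no call in 12 tested, H2ac25 had the highest count and a log2 fold change of 0.26 (adjusted p = 0.371), and H2ac19 had -0.28 (adjusted p = 0.53). H2ac10, chosen here after its values were seen, had -1.30 (adjusted p = 0.0918).

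H4 genes gave no call in 12 tested, and 11 of them had a fold change below 0, against 51.5% of all genes (median log2 fold change -0.43). Several of these H4 genes share reads. H4c8 had 11.8, 10.8, 15.2, 6.27 and 9.03 CPM in RGECO 1, 2, 3, 5 and 6, against 20.9, 32.1, 21.6, 15.3, 12.8 and 12.5 CPM in WT 1 to 6. The ranges overlapped through RGECO 3 and WT 5 and 6. Its log2 fold change of -0.84 (SE 0.27) missed the threshold (edgeR adjusted p = 0.0673, with 0.00265 to 0.252 over the alternatives), and without RGECO 3 or without WT 6 it passed (-1.01 and -0.93, adjusted p = 0.0489 and 0.0445). H4c4, which had the highest count of its class, had -0.44 (adjusted p = 0.318), H4c6 -0.36 (adjusted p = 0.49) and H4c16 -0.23 (adjusted p = 0.661). With the mitochondrial or Malat1 share in the fit, H4c4 was lower (-0.61 and -0.66, edgeR adjusted p = 0.0012 and 0.00324). H4c6 was also called lower with either share, and H4c16 with the Malat1 share.

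Near-identical coding sequences limit these values gene by gene. Estimated counts for H4c17 were 59.0, 0, 4.3, 141 and 0 in RGECO 1, 2, 3, 5 and 6, and 271 in WT 2 with 0 in the other WT libraries. H4c18 had 42.6, 235, 292, 0 and 188 counts in the same RGECO libraries, and 241, 117, 238, 191, 185 and 155 in WT 1 to 6. H4c18 was lowest in the RGECO and WT libraries where H4c17 was highest. H3c10 and H3c11 (H3c10 at 0 in RGECO 1 and 5) and H2ac12 and H2ac13 (one of them at 0 in each RGECO library and in WT 2) also traded counts between libraries.

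**Figure D4:**
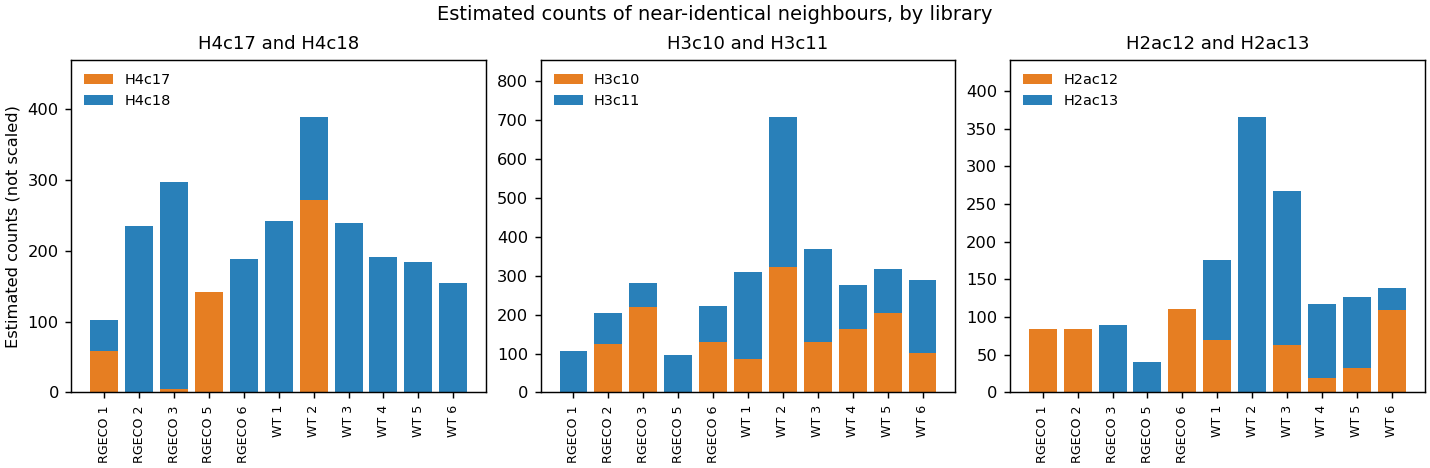
Estimated counts, not scaled for depth, of 3 pairs of near-identical genes in each of the 11 libraries, stacked, RGECO left of WT. The split within a pair jumps between libraries: H4c17 holds all 141 counts of its pair in RGECO 5 and none in RGECO 2.

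Linked genes of a class were also summed before the fit, an alternative chosen after the data were seen. A pair was linked where the shared 50-base words exceeded 50% of those of the gene with fewer words, and links were chained. A group can thus include genes whose words are mostly unique, such as H2ac6 (85.9%) and H2bc6 (83.7%). Of the 27 resulting units 3 were lower in RGECO (edgeR, 4.7% of all genes). These were H1f5 (-0.78, adjusted p = 0.0339), a group of 11 H2A genes, and H3c13 with H3c14 and H3c15. The H2A group, which includes H2ac10, H2ac12 and H2ac13, averaged 21.6 ± 4.52 CPM in RGECO and 40.2 ± 16.2 CPM in WT, with no overlap (log2 fold change -0.88, SE 0.24, adjusted p = 0.03). The H3c13 group averaged 14.0 ± 3.73 CPM in RGECO and 29.9 ± 14.1 CPM in WT, with no overlap (-1.07, SE 0.27, adjusted p = 0.0214). The other 9 grouped H3 genes, among them H3c2, gave -0.78 (adjusted p = 0.055), 6 grouped H4 genes gave -0.64 (adjusted p = 0.106), and the 11 grouped H2B genes that include H2bc13 gave -0.38 (adjusted p = 0.321). H4c17 with H4c18 gave -0.16 (adjusted p = 0.792). Without WT 2, where 5.02% of all genes were lower and 3.63% higher, the H2A group (-0.65, adjusted p = 0.031) and the H3c13 group (-0.79, adjusted p = 0.0176) stayed past the threshold, H1f5 did not (-0.70, adjusted p = 0.0641), and H1f4 was higher (0.81, adjusted p = 0.0148).

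Members were also sorted by the annotated end of their transcripts. Those with a transcript running over 100 bases past the stem-loop, 23 in all, had a median log2 fold change of -0.42 over 19 tested and no call. The 23 that end within 100 bases of it had -0.42 over 20 tested and 1 call (H3c2), and the 27 without a stem-loop -0.58 over 18 tested and 3 calls. The longest transcripts of these 27 had a median length of 444 bases. A transcript annotated only up to a point before the stem-loop also falls in this class, so the sorting reflects the annotation as well. With a poly(A) signal in the last 50 bases the median was -0.23 over 14 tested with no call, and without one -0.54 over 43 tested with 4 calls. All calls in these classes were lower in RGECO, as were 4.93% of all genes. By uniqueness, 8 tested members with at least 90% unique 50-base words had a median of -0.09, 22 with 50% to 90% had -0.49, and 27 with under 50% had -0.43.

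Other genes of histone supply were taken from lists of related genes. The counts of each list stand beside 4.93% of all genes called lower, 3.42% called higher and 51.5% below 0. Of 9 tested replacement and variant histone genes 1 was lower in RGECO, the centromeric H3 variant Cenpa (11.5 ± 1.38 CPM in RGECO and 17.98 ± 2.54 CPM in WT, log2 fold change -0.64, edgeR adjusted p = 0.0158). The H3.3 genes H3f3a and H3f3b had 0.06 and -0.06. None of 12 tested genes of histone mRNA 3′ processing and decay passed the test. Slbp, which encodes the stem-loop binding protein, had 7.03 ± 2.29 CPM in RGECO and 9.09 ± 3.74 CPM in WT (-0.36, adjusted p = 0.528), Sympk -0.08 and Upf1 0.11. Of 8 transcription genes, Ccne1, which encodes cyclin E1, was higher (12.9 ± 1.33 CPM in RGECO and 7.85 ± 1.62 CPM in WT, 0.72, adjusted p = 0.0185) and Gon4l was lower (-0.47, adjusted p = 0.029), and Pou2f1, an octamer-binding factor, had 0.14. Cenpa and Ccne1 kept their calls without any 1 library. Cenpa lost its call in log2(TPM + 1) (-0.41, limma adjusted p = 0.222) and with all 12 libraries (-0.65, edgeR adjusted p = 0.0583), and Ccne1 with no filter on low counts (0.71, edgeR adjusted p = 0.0588). Gon4l lost its call without RGECO 2, 5 or 6 or WT 2, 3, 4, 5 or 6 (adjusted p up to 0.104), in log2(TPM + 1) (-0.20, limma adjusted p = 0.698) and with all 12 libraries (-0.42, edgeR adjusted p = 0.296).

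Of 17 chaperone genes, 2 were lower, against 4.93% of all genes. Hjurp, the chaperone of Cenpa, had 73.4 ± 9.499 CPM in RGECO and 107 ± 2.53 CPM in WT (-0.54, adjusted p = 0.00313), and Asf1b, an H3 and H4 chaperone, had 8.19 ± 2.73 CPM in RGECO and 14.3 ± 3.04 CPM in WT (-0.79, adjusted p = 0.0436). Hjurp kept its call without any 1 library but lost it with all 12 libraries (-0.58, adjusted p = 0.133) and in log2(TPM + 1) with no filter on low values (-0.51, limma adjusted p = 0.0669). Asf1b lost it without RGECO 1, 3, 5 or 6 or WT 2, 3, 4, 5 or 6 (adjusted p up to 0.106) and in log2(TPM + 1) (-0.54, limma adjusted p = 0.115). Rbbp4 and Ssrp1, whose signs turned under other settings, had 0.04 and 0.01. None of 22 DNA replication genes passed the test (median -0.08), and the ribonucleotide reductase genes Rrm2 and Rrm1 had 0.13 and 0.15. Of 15 genes of G2 and mitosis, 4 were lower, against 4.93% of all genes, and all 15 were below 0 (median -0.53), against 51.5% of all genes. Ccnb1, which encodes cyclin B1, had 14.1 ± 2.25 CPM in RGECO and 25.1 ± 5.36 CPM in WT (-0.84, adjusted p = 0.00659), and the kinase genes Aurka, Aurkb and Plk1 had -0.69, -0.64 and -0.61 (adjusted p = 0.0192, 0.0282 and 0.0469). Ccnb1 kept its call without any 1 library but lost it in log2(TPM + 1) with no filter on low values (-0.76, limma adjusted p = 0.0523). Aurka, Aurkb and Plk1 were not called in log2(TPM + 1) (limma adjusted p = 0.178, 0.543 and 0.146). Aurka lost its call without RGECO 2 or WT 5, Aurkb without RGECO 1, 5 or 6 or WT 3, 4, 5 or 6, and Plk1 without any 1 library other than WT 6. Mki67 and Top2a had -0.52 and -0.37 and did not pass. The part of these genes' difference in the histone levels was not tested.

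RNAs that carry no poly(A) tail were taken as a further list. Of 5 tested, 2 were lower in RGECO, against 4.93% of all genes. Rn7sk, the 7SK RNA, had 2358, 2909, 3934, 6302 and 3880 CPM in RGECO 1, 2, 3, 5 and 6, against 8434, 12010, 8252, 8558, 5616 and 4790 CPM in WT 1 to 6 (log2 fold change -1.04, adjusted p = 0.0214). RGECO 5 lay within the WT range and WT 2 was the highest, as it was for the summed core histones. Rmrp had 385 ± 150 CPM in RGECO and 881 ± 335 CPM in WT, with no overlap (-1.19, adjusted p = 0.0365), while Rn7s1 and Rn7s2, the RNA of the signal recognition particle, had -0.54 and -0.37. The call was lost for Rn7sk without RGECO 1, 2 or 6 (adjusted p up to 0.0685) and for Rmrp without RGECO 2, 5 or 6 or WT 1, 2, 4 or 6 (up to 0.083). Neither was called with no filter on low counts (adjusted p = 0.123 and 0.152), with all 12 libraries (0.656 and 0.152) or in log2(TPM + 1) with no filter on low values (limma, 0.533 and 0.149). The list summed to 14800 to 29300 CPM in RGECO and 23100 to 57600 CPM in WT. Their part in the histone results was not tested.

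**Figure D5:**
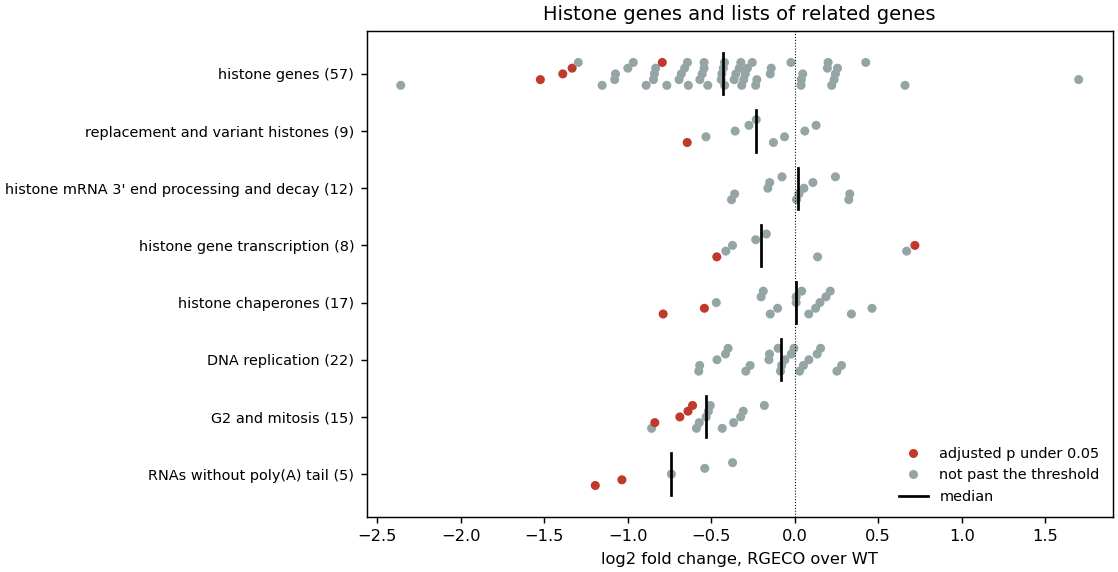
Log2 fold change of RGECO over WT for each tested gene of the histone set and of 7 lists of related genes, with the number tested in brackets, the median as a line and genes past adjusted p 0.05 in red. The histone median is -0.43, beside -0.53 for G2 and mitosis genes, -0.74 for RNAs without a poly(A) tail and -0.08 for DNA replication.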

How the data were processed

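Per the file headers, the authors deposited Salmon tables of estimated counts and of TPM for each gene. Estimated counts were deposited without scaling. The authors' TPM values take transcript length into account and sum to 1000000 in each library. Among the tools that the submitters' processing notes list are Salmon, STAR, BWA 0.7.12-r1039 and bedtools 2.25.0, and among the builds GRCm39, mm10 and hg19, none with a role. The strand setting and the annotation release were not given in the sources used, so antisense reads cannot be told apart.

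Rounded estimated counts went into edgeR 4.0.16 (R 4.3.3) with filterByExpr, TMM scaling, the robust quasi-likelihood F test and Benjamini-Hochberg adjustment over 13318 genes. RGECO 4 was left out for a total under 1000000 counts, which departs from the design first written for 12 libraries. CPM values are TMM-scaled, and the floor of 3 counts was 0.246 to 0.525 CPM per library, which covers counting error only. Alternatives were DESeq2 1.42.0, limma 3.58.1 on log2(TPM + 1) or log2(TPM + 0.1), other filters and scalings, covariates, a replicate block and each library left out. Among 25 pairs of libraries of 1 line, chi-square per gene was at least 7.73, so no library was counted as a repeat.

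Transcripts, 50-base words and coordinates came from GENCODE M21 (GRCm38), matched by gene identifier. Named genes were those past adjusted p 0.05, the 10 members highest in TPM, the 3 of each class and the 2 of each list highest in CPM, and H1f0, Slbp, Rn7sk and Rmrp. The members and lists were chosen with earlier results of these data known. The H1 box and the summing of read-sharing genes were added after the data were seen.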

Additional observations from a re-analysis of the deposited data

Results flagged for a closer look

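Library WT 2 lay far above the other WT libraries in 6 of 104 groups of values examined, near the share of about 1 in 20 that chance gives. The flagged groups are not separate, since H2bc12, H2bc13 and H2bc18 are part of summed H2B. H2bc12 had 34.2 CPM in WT 2, against 18.9 CPM in the next WT library. H2bc13 had 20.2 CPM in WT 2 and 9.83 CPM in the next. H2bc18 had 35.3 and 23.7 CPM, H3c10 36.0 and 16.8 CPM, and H3c13 35.7 and 19.9 CPM in the same order. Summed H2B was 616 TPM in WT 2 and 454 TPM in the next WT library. H2bc13 and H3c13 stayed lower in RGECO without this library, as given with their values above.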

How the results depend on the processing

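Main counts were 0 histone genes higher, 4 lower and 1112 calls over all genes. Histone genes called higher numbered 1 with DESeq2, log2(TPM + 1), log2(TPM + 0.1), either covariate, and read-sharing genes summed without WT 2. Those called lower numbered 7 with DESeq2, 7 with all 12 libraries (12.5% of 56 tested, against 4.49% of all genes), 13 with the mitochondrial share, 21 with the Malat1 share, 2 with genes summed without WT 2, and 0 in log2(TPM + 1) with no filter on low values. All genes called numbered 1674 with DESeq2, 820 with all 12 libraries, 626 in log2(TPM + 1), 600 in log2(TPM + 0.1), 310 in log2(TPM + 1) with no filter on low values, 3133 with the mitochondrial and 2771 with the Malat1 share. Leaving out 1 library gave 0 to 1 higher, 2 to 5 lower and 785 to 1140 calls over all genes. The cause of these shifts was not tested. The fit with all 12 libraries adds only RGECO 4, with 825 counts and none in a histone gene.

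Counts in this paragraph pool both directions, so none is a result about its list without the share of all genes called. In the main fit 3.42% of all genes were called up in RGECO and 4.93% down. In the same order DESeq2 gave 5.65% and 6.92%. The mitochondrial covariate gave 12.1% and 11.4%, and the Malat1 covariate 10.5% and 10.3%. All 12 libraries gave 1.82% and 4.49%, and no count filter 1.29% and 2.38%. Fits in log2(TPM + 1) gave 2.7% and 2.0%, or 0.614% and 0.449% unfiltered. Calls among replacement and variant histones were 2 with DESeq2, and 0 in the 3 TPM fits and with all 12 libraries. They were 3 with the mitochondrial and 4 with the Malat1 share (1 with each library left out). For 3′ processing they were 2 and 1 with these shares. Transcription genes gave 1 call with no count filter, in the TPM fits, with all 12 libraries and with genes summed without WT 2, and 1 to 2 with a library left out. Chaperones gave 1 in the filtered TPM fits, with all 12 libraries and with genes summed without WT 2, 0 in the unfiltered TPM fit, 4 with the mitochondrial and 7 with the Malat1 share, and 1 to 2 with a library left out. DNA replication gave 3 and 4 with these shares. G2 and mitosis gave 2 with no count filter or all 12 libraries, 1 in the filtered and 0 in the unfiltered TPM fits, and 1 to 5 with a library left out. RNAs without a tail gave 0 with no count filter, in the unfiltered TPM fit and with all 12 libraries, 4 with the Malat1 share, 1 with genes summed without WT 2, and 0 to 2 with a library left out.

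Signs turned, among the named genes, for log2 fold changes near 0. H1f2 was -0.066 with all 12 libraries, -0.10 and -0.12 with the mitochondrial and Malat1 shares, and -0.072 to 0.17 with a library left out. H1f0 was -0.045 with all 12 libraries. H2bc18 was -0.021 and -0.062 with the shares and -0.046 to 0.21 with a library left out. H3f3a was -0.093 and Rbbp4 -0.067 with all 12 libraries. Upf1 was -0.012 and -0.079 with the shares. Sympk was 0.019 in log2(TPM + 1) with or without the filter, 0.020 in log2(TPM + 0.1), 0.046 with genes summed without WT 2, and -0.14 to 0.047 with a library left out. Ssrp1 was -0.0038 with no count filter, -0.059 with all 12 libraries, -0.041 and -0.042 with the shares, and -0.031 to 0.064 with a library left out.

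Replicate numbers did not pair the libraries: same-numbered libraries correlated at -0.00887, -0.153, 0.0074, -0.151 and 0.364 (replicates 1, 2, 3, 5 and 6), and RGECO 6 alone correlated best with its own number. With a replicate block, 4 histone genes were called and 777 genes in all: H1f5 was not called (-0.84, adjusted p = 0.0898), H4c8 was (-0.87, adjusted p = 0.0314), and the other 3 were the same. Ccnb1, Ccne1, Rn7sk and Rmrp were not called under the block (adjusted p = 0.0519, 0.0641, 0.141 and 0.235). Under the block transcription, G2 and mitosis and tailless RNAs gave 0 calls and DNA replication 1, H1f2 was -0.019 and Ssrp1 -0.035.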
